A study of Mus musculus with 21 samples.

Results

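The genes described are 10 factors and receptors of blood and lymph vessel growth, chosen by symbol: the VEGF ligands Vegfa, Vegfb, Vegfc and Vegfd, the angiopoietin-type ligands Angpt1 and Angptl4, the peptide hormone adrenomedullin (Adm), and the VEGF receptors Kdr, Flt1 and Nrp1. They are 10 of the 52636 genes in the count table, and all 10 passed the filter on low counts that left 16197 genes to be tested. The libraries were 21, in 7 groups of 3, from mouse lung fibroblasts bearing Ly6C and Sca-1, surface proteins of a fibroblast subset around vessels and airways, stimulated in culture. The groups received DMSO (a solvent), CHIR, TGFb1, TGFb1 + DMSO, TGFb1 + CHIR, TGFb1 + IL1b or TGFb1 + TNF. TGFb1 is known for turning fibroblasts toward matrix production, and IL1b and TNF are inflammatory cytokines. CHIR is given by that short name, which commonly stands for a GSK3 inhibitor that raises Wnt signalling. No group without any addition was analysed here, so DMSO serves as the baseline. The sources used here do not give strain, age, doses or times, nor whether the 3 libraries of a group stand for separate cultures. The p-values thus set a group difference against the spread between libraries of the same group, estimated over all 21 libraries.

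VEGF-A is the main growth factor of blood vessel endothelium. It acts through VEGFR2 (encoded by Kdr), while VEGFR1 (Flt1) binds it tightly with weak signalling and, as a soluble form, traps it, and neuropilin-1 (Nrp1) presents it as a co-receptor. VEGF-B binds VEGFR1, and VEGF-C and VEGF-D drive lymphatic vessel growth through VEGFR3 (Flt4) once proteases have cut them. Angiopoietin-1 (Angpt1), made by cells around vessels, steadies endothelium through the receptor Tie2 (Tek). Adrenomedullin acts on vessels and lymphatics through the receptor Calcrl paired with Ramp2 or Ramp3. Angiopoietin-like 4 (Angptl4) is a secreted inhibitor of lipoprotein lipase that PPAR factors and low oxygen are known to raise. In the lung, fibroblasts and epithelium are sources of these ligands, while Kdr and Flt1 are best known from endothelium.

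Library totals ran from 19796379 to 29276382 counts. The leading 2 principal components of log2 values held 55.6% and 14.5% of the variance. The library numbers in the labels have gaps before TGFb1 + CHIR, before TGFb1 + IL1b and TGFb1 + TNF, and before CHIR. Whether these libraries were made apart from their controls is not stated, so such a difference and these treatments cannot be told apart. All 9 fibroblast markers had counts in every group, but their levels moved with the treatments. With TGFb1 in solvent 2 rose and 6 fell, where 30.7% of all genes tested rose and 31.3% fell. With TNF on TGFb1 1 rose and 8 fell (median log2 fold change -1.70), where 27.7% of all genes tested rose and 28.8% fell. Pdgfra ran from a group mean of 1553 counts scaled to a common library total (CPM) in DMSO to 78.7 in TGFb1 + TNF, where Lum was at 0.0248. Of the genes behind the sorting proteins, Ly6a (Sca-1) ran from a group mean of 7.55 CPM in TGFb1 + CHIR to 148 in DMSO, and Ly6c1 from 0.678 in TGFb1 + CHIR to 52.1 in DMSO. The endothelial markers (15 genes, Kdr and Flt1 not among them) summed to group means of 12.9 CPM in TGFb1 + IL1b to 21.3 in TGFb1 + CHIR, with Ptprb or Tek the highest marker. Cldn5 and Sox17 were at 0 in every library, and Tie1 was at 0 in 6 of the 7 groups. Pecam1 stayed between group means of 0.0635 and 0.659 CPM, and Cdh5, between 0.0352 and 0.594 elsewhere, stood at 4.65 ± 0.244 CPM in TGFb1 + TNF (mean ± SD, n = 3). The 8 immune markers summed to group means of 2.03 CPM in CHIR to 6.16 in TGFb1 + IL1b. Ptprc, Adgre1 and Cd3e were at 0 in every library, while Cd68 (1.24 to 2.37 CPM) and Csf1r (0.663 to 4.28 CPM) had counts in every group. In bulk RNA, fewer cells making a transcript and less transcript per cell cannot be told apart.

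The promoters of 3 members are shown because these had the widest range between group means: Vegfd (the highest group mean 230 times the lowest), Adm (225 times) and Vegfa (14.7 times). Sequences are from RefSeq on GRCm38.p6, each 300 bases from 250 before the transcript start to 50 from it on, read 5′ to 3′ along the gene. Capitals mark the hypoxia response core on either strand, searched as ACGTG and GCGTG. Vegfa has 2 windows, the second of which lies within the gene.
Vegfd (chrX:164373272-164373571, plus strand): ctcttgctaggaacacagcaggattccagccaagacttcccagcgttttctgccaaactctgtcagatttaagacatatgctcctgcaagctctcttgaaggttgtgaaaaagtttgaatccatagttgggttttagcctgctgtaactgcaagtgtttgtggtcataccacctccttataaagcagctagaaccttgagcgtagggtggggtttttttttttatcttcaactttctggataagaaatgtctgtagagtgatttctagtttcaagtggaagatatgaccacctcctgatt
Adm (chr7:110627407-110627706, plus strand): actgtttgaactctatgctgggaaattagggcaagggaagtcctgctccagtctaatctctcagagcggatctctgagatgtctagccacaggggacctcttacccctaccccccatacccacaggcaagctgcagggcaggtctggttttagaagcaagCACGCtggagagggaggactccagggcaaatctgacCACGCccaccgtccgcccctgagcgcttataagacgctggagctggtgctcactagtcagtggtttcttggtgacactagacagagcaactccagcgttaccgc
Vegfa, the first window (chr17:46032328-46032627, minus strand): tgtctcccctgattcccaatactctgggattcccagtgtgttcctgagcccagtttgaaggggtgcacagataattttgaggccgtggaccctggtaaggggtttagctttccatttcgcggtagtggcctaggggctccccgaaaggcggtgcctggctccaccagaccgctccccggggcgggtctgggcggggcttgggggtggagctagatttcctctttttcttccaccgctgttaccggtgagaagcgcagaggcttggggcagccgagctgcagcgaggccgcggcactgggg
Vegfa, the second window (chr17:46025114-46025413, minus strand): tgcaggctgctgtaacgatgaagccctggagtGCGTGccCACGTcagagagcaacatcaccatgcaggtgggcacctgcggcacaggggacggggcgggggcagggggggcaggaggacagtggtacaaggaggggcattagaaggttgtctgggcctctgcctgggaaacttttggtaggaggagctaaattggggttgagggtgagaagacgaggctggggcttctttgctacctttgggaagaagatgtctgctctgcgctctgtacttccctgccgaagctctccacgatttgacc

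A window was found for 8 of the 10 members, which gave 9 windows. The Adm window held 2 matches to GCGTG on the reverse strand, beginning 90 and 54 bases before the start. The second Vegfa window held 1 match to each form, and the first Vegfa window and those of Vegfd and Vegfc held none. The windows of Vegfb and Kdr held 2 matches to GCGTG each, and those of Flt1 and Nrp1 held 1 each. Among the 32851 windows in the RefSeq table, 19.6% held ACGTG and 32.4% held GCGTG on either strand. No member window held TGANTCA (AP-1, in 7.81% of all windows), CTTTGAT (TCF/LEF, in 3.73%), GGGANTTTC (NF-kB, in 1.11%) or GTCTAGAC (SMAD, in 0.213%). A match describes letters and not a binding site, and no match says only that these letters are not in this window.

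Levels are CPM of each library's total, given for libraries 1, 2 and 3 of a group and then as mean ± SD (n = 3). Log2 fold changes are from edgeR ± SE, above 0 where the group given ahead of "against" has more. A gene passed the test at a Benjamini-Hochberg adjusted p under 0.05 over the 16197 genes.

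**Figure D1:**
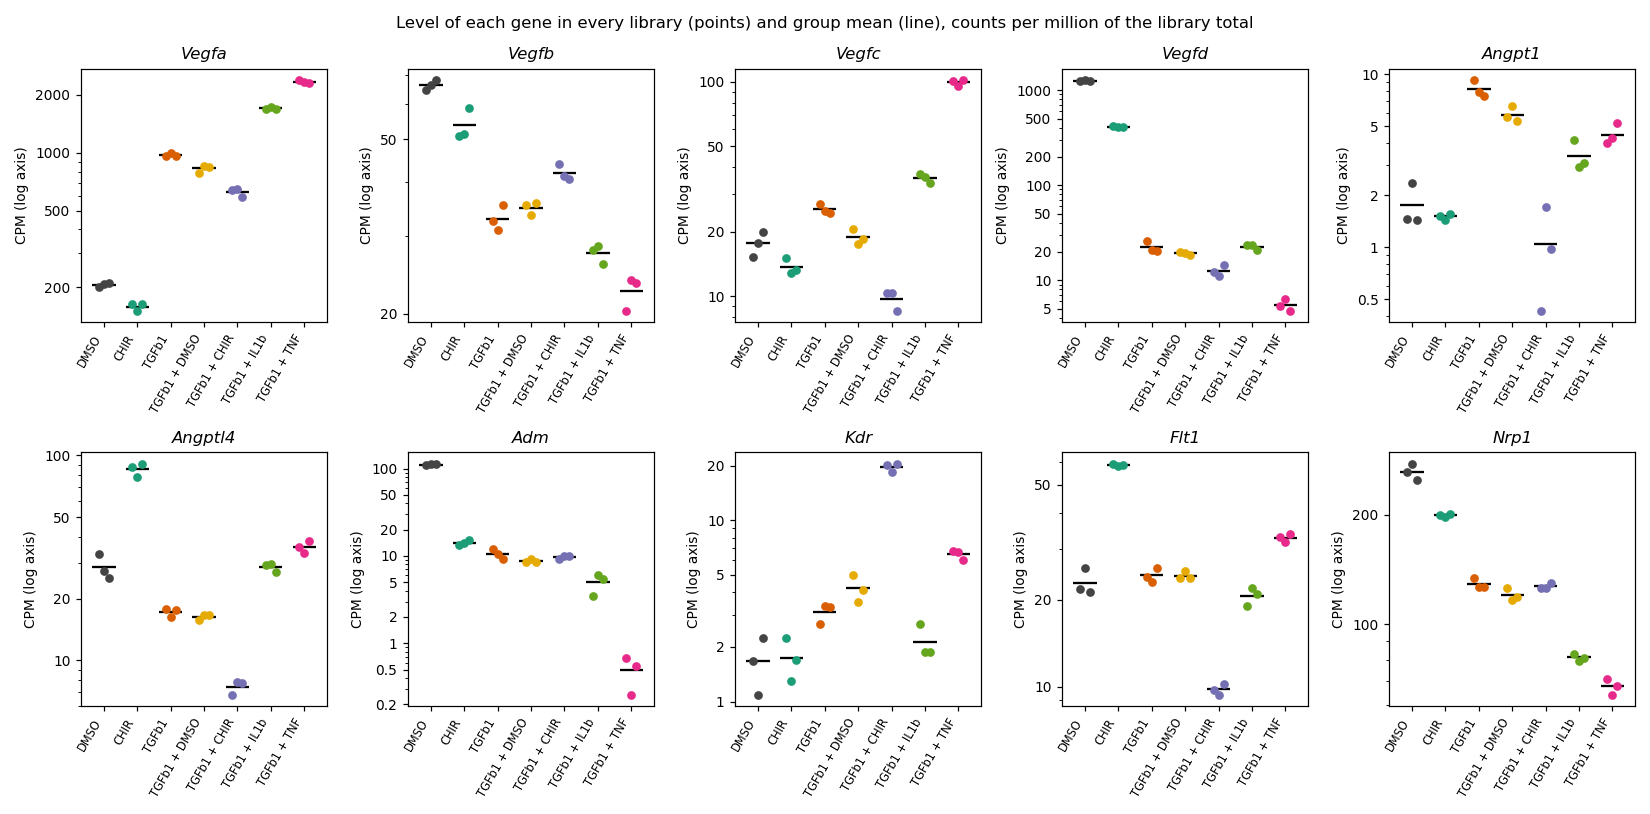
Each panel plots 1 gene, with CPM on a log axis against the 7 treatment groups, points for the 3 libraries of a group and a line for their mean. Vegfd and Adm are highest in DMSO and lowest in TGFb1 + TNF, Vegfa and Vegfc are highest in TGFb1 + TNF, Kdr stands highest in TGFb1 + CHIR, and Angptl4 and Flt1 are highest in CHIR alone.

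Vegfd (ENSMUSG00000031380, GRCm38 chromosome X, 164373378 to 164402650, plus strand), the lymphatic growth factor VEGF-D, was among the abundant transcripts of the cells without TGFb1 and scarce in every group with it. In DMSO the libraries stood at 1252, 1273 and 1256 CPM (1260 ± 11.3). In CHIR they stood at 420, 408 and 407 CPM (412 ± 6.95). The lowest library without TGFb1 stood at 407 CPM and the highest with it at 26.1. TGFb1 gave 26.1, 20.6 and 20.1 CPM (22.3 ± 3.32), and TGFb1 + DMSO gave 19.6, 19.1 and 18.6 CPM (19.1 ± 0.518). TGFb1 + IL1b gave 23.2, 23.3 and 20.8 CPM (22.4 ± 1.41), which overlapped the range of TGFb1. Below these lay TGFb1 + CHIR at 12.2, 11.1 and 14.5 CPM (12.6 ± 1.73) and TGFb1 + TNF at 5.38, 6.31 and 4.76 CPM (5.48 ± 0.777). Vegfd was 63.3-fold lower in TGFb1 + DMSO than in DMSO (-5.98 ± 0.075, edgeR adjusted p = 6.04e-34) and 2.92-fold lower in CHIR than in DMSO (-1.54 ± 0.058, edgeR adjusted p = 2.56e-20). On top of TGFb1, it fell a further 4.24-fold with TNF (-2.09 ± 0.099, edgeR adjusted p = 4.95e-18) and 1.46-fold with CHIR (-0.55 ± 0.089, edgeR adjusted p = 6.14e-06). With IL1b its change was 0.00 (95% interval -0.16 to 0.16, edgeR adjusted p = 0.98), but against TGFb1 + DMSO as the control the same libraries were 0.26 higher (edgeR adjusted p = 0.00865).

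Vegfa (ENSMUSG00000023951, GRCm38 chromosome 17, 46016993 to 46032369, minus strand), the blood vessel growth factor, went the other way. DMSO libraries stood at 201, 207 and 211 CPM (206 ± 4.85) and CHIR libraries at 163, 151 and 163 CPM (159 ± 6.41). TGFb1 libraries stood at 967, 993 and 961 CPM (974 ± 17.1), and TGFb1 + DMSO libraries at 790, 858 and 846 CPM (831 ± 36.2). None of the 7 groups overlapped its neighbour in the order of means. TGFb1 + CHIR held 639, 647 and 590 CPM (626 ± 31.1), between DMSO and TGFb1 + DMSO. The highest levels were 1699, 1739 and 1690 CPM (1710 ± 25.9) with TGFb1 + IL1b and 2390, 2334 and 2297 CPM (2340 ± 46.9) with TGFb1 + TNF. Vegfa rose 4.2-fold in TGFb1 + DMSO against DMSO (2.07 ± 0.04, edgeR adjusted p = 1.42e-41), and 4.07-fold where CHIR was present in both groups (2.03 ± 0.041, edgeR adjusted p = 4.15e-41). On TGFb1 it rose a further 1.76-fold with IL1b (0.81 ± 0.038, edgeR adjusted p = 1.12e-23) and 2.3-fold with TNF (1.20 ± 0.039, edgeR adjusted p = 1e-31). CHIR lowered it 1.24-fold without TGFb1 (-0.31 ± 0.04) and 1.28-fold with it (-0.35 ± 0.039). Against TGFb1 without solvent, the change in TGFb1 + CHIR was larger, at -0.61.

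Vegfc (ENSMUSG00000031520, GRCm38 chromosome 8, 54077606 to 54187096, plus strand), which encodes the other lymphatic growth factor, VEGF-C, did not follow Vegfd. It stood at 15.2, 17.7 and 19.9 CPM in DMSO (17.6 ± 2.38), 15, 12.8 and 13.3 CPM in CHIR (13.7 ± 1.12) and 10.3, 10.3 and 8.53 CPM in TGFb1 + CHIR (9.74 ± 1.05). TGFb1 libraries held 27, 24.9 and 24.3 CPM (25.4 ± 1.4) and TGFb1 + DMSO libraries 20.6, 17.5 and 18.4 CPM (18.8 ± 1.61), the second of which overlapped DMSO. It was highest with the inflammatory cytokines, at 37, 36.1 and 33.9 CPM in TGFb1 + IL1b (35.7 ± 1.6) and 101, 95.4 and 102 CPM in TGFb1 + TNF (99.5 ± 3.56). TNF raised Vegfc 3.75-fold on TGFb1 (1.91 ± 0.08, edgeR adjusted p = 6.8e-27), IL1b raised it 1.4-fold (0.49 ± 0.081, edgeR adjusted p = 2.55e-06), and CHIR lowered it 1.85-fold on TGFb1 (-0.89 ± 0.096, edgeR adjusted p = 3.25e-11). TGFb1 within solvent gave 0.17 ± 0.088 (edgeR adjusted p = 0.0978), while TGFb1 without solvent against DMSO gave 0.63 (edgeR adjusted p = 9.3e-09) and leaving out DMSO library 3 gave 0.28 (edgeR adjusted p = 0.0102). With the other TGFb1 control, the IL1b change was 0.95 and the CHIR change -1.35. The fall with CHIR alone (-0.28 ± 0.092, edgeR adjusted p = 0.00959) did not pass without CHIR library 2 (-0.24) or without DMSO library 3 (-0.19).

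Vegfb (ENSMUSG00000024962, GRCm38 chromosome 19, 6982473 to 6987651, minus strand), the VEGFR1 ligand VEGF-B, had the narrowest range of the 10 members, with the highest group mean 2.95 times the lowest. It stood at 64.9, 66.5 and 68.2 CPM in DMSO (66.6 ± 1.67), 50.8, 51.5 and 58.9 CPM in CHIR (53.7 ± 4.46) and 43.9, 41.3 and 40.6 CPM in TGFb1 + CHIR (41.9 ± 1.74). The groups with TGFb1 and no CHIR were lower still. Their means were 32.9 ± 2.23 CPM with TGFb1, 34.9 ± 1.18 with TGFb1 + DMSO, 27.5 ± 1.36 with TGFb1 + IL1b and 22.6 ± 1.98 with TGFb1 + TNF. Vegfb fell 1.83-fold with TGFb1 in solvent (-0.87 ± 0.069, edgeR adjusted p = 3.83e-16). CHIR lowered it without TGFb1 (-0.24 ± 0.067) and raised it with TGFb1 (0.32 ± 0.071, edgeR adjusted p = 0.00014).

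Scaled to exon length, the VEGF ligand transcripts changed from mostly Vegfd to mostly Vegfa. Of their summed CPM per kilobase, Vegfd made up 84.4 ± 0.424% in DMSO and 69.2 ± 1.16% in CHIR, and Vegfa 7.76 ± 0.142% and 15 ± 0.354% (mean ± SD, n = 3). In the 5 groups with TGFb1, Vegfa made up from 80.5 ± 0.801% in TGFb1 + CHIR to 90.7 ± 0.353% in TGFb1 + IL1b. Vegfd made up 3.46 ± 0.509% in TGFb1 and 0.377 ± 0.0527% in TGFb1 + TNF, where Vegfc reached 6.74 ± 0.257%. Vegfb held 14.4 ± 0.478% in TGFb1 + CHIR and 2.33 ± 0.238% in TGFb1 + TNF. These are shares of transcript, and protein was not measured.

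**Figure D2:**
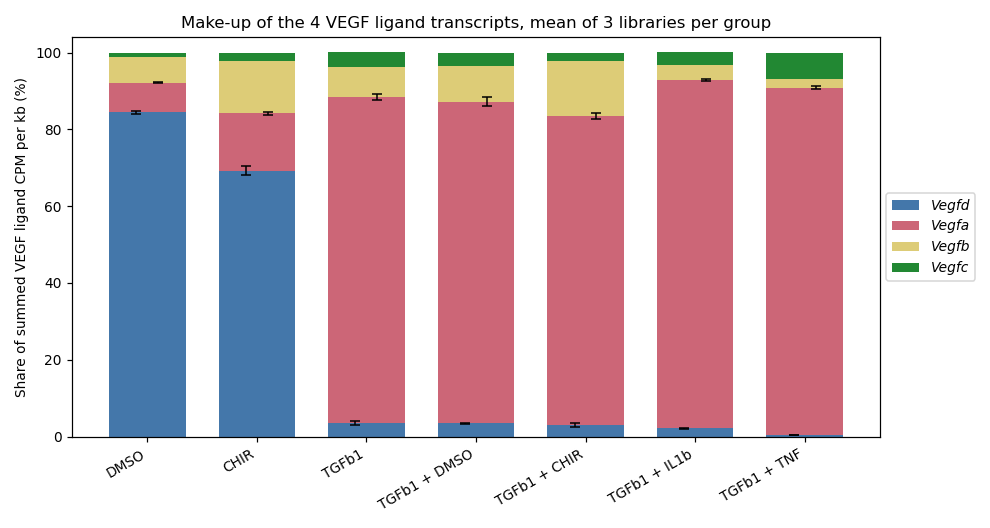
Stacked bars give the share of each VEGF ligand in the summed CPM per kilobase of exon, in percent, for the 7 groups (mean of 3 libraries), with SD bars at the tops of the Vegfd and Vegfa segments. Vegfd fills 84.4% of the DMSO bar and 69.2% of the CHIR bar, and Vegfa fills 80.5% to 90.7% of the bars with TGFb1.

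Angpt1 (ENSMUSG00000022309, GRCm38 chromosome 15, 42424723 to 42676977, minus strand), the Tie2 agonist, was scarce in all groups, so its counts limit the precision. TGFb1 libraries held 9.24, 7.87 and 7.48 CPM (8.2 ± 0.925) and TGFb1 + DMSO libraries 5.67, 6.52 and 5.33 CPM (5.84 ± 0.616). DMSO libraries held 1.46, 2.36 and 1.44 CPM (1.75 ± 0.523) and CHIR libraries 1.52, 1.44 and 1.56 CPM (1.51 ± 0.0607). Both groups with TGFb1 and no other agent lay above these. In TGFb1 + CHIR it was at 0.429, 1.71 and 0.98 CPM (1.04 ± 0.645), from 12, 36 and 20 counts, a range that overlapped DMSO and CHIR. TGFb1 + IL1b held 4.14, 2.9 and 3.05 CPM (3.36 ± 0.68) and TGFb1 + TNF 3.98, 4.25 and 5.19 CPM (4.47 ± 0.638). Angpt1 rose 3.45-fold with TGFb1 in solvent (1.79 ± 0.23, edgeR adjusted p = 2.38e-09) and fell 5.61-fold when CHIR was added to TGFb1 (-2.49 ± 0.26, edgeR adjusted p = 1.49e-11). It fell 2.44-fold with IL1b (-1.29 ± 0.21, edgeR adjusted p = 1.71e-06) and 1.92-fold with TNF (-0.94 ± 0.21, edgeR adjusted p = 0.0001). With TGFb1 + DMSO as the control these were -0.77 (edgeR adjusted p = 0.00285) and -0.42 (edgeR adjusted p = 0.0814), so the fall with TNF did not pass there. The mural cell markers (7 genes), of cells that wrap vessels, summed to 79.2 ± 3.29 CPM in DMSO, 53.9 ± 2.35 in CHIR, 171 ± 9.09 in TGFb1, 158 ± 5.14 in TGFb1 + DMSO and 71.2 ± 2.79 in TGFb1 + CHIR. Like Angpt1 their sum stood higher with TGFb1 in solvent and lower once CHIR was added. It was highest in TGFb1 + IL1b (186 ± 10.9) and TGFb1 + TNF (296 ± 4.88), where Angpt1 fell. The single markers did not all follow the sum. Of the 4 tested, 2 rose and 2 fell with TGFb1 in solvent (30.7% and 31.3% of all genes). CHIR on TGFb1 raised 0 and lowered 3 (20.8% and 22.5%). IL1b raised 1 and lowered 2 (17.2% and 17.4%), and TNF raised 1 and lowered 3 (27.7% and 28.8%, median -1.59). Cspg4 made up most of the sum in the groups with TGFb1 and no CHIR, and Higd1b was at 0 throughout. Their part in the result for Angpt1 was not tested. For Angpt1, TGFb1 + CHIR against CHIR gave -0.54 ± 0.3 (edgeR adjusted p = 0.116), and -1.11 (edgeR adjusted p = 0.00428) without TGFb1 + CHIR library 2.

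Angptl4 (ENSMUSG00000002289, GRCm38 chromosome 17, 33773750 to 33781830, minus strand), the lipoprotein lipase inhibitor, was highest with CHIR alone and lowest with CHIR and TGFb1 together. CHIR libraries stood at 87.4, 78.4 and 90.8 CPM (85.6 ± 6.4) and DMSO libraries at 33.2, 27.2 and 25.2 CPM (28.5 ± 4.18). TGFb1 + CHIR libraries stood at 6.8, 7.81 and 7.74 CPM (7.45 ± 0.565). No other library reached either extreme. TGFb1 held 17.9, 16.2 and 17.7 CPM (17.3 ± 0.945) and TGFb1 + DMSO 15.7, 16.7 and 16.7 CPM (16.3 ± 0.577). TGFb1 + IL1b at 29.2, 29.6 and 27.1 CPM (28.7 ± 1.32) overlapped DMSO, and TGFb1 + TNF stood above both at 35.9, 33.4 and 38.4 CPM (35.9 ± 2.53). CHIR raised Angptl4 3.14-fold without TGFb1 (1.65 ± 0.079, edgeR adjusted p = 8.33e-24) and lowered it 2.12-fold with TGFb1 (-1.09 ± 0.1, edgeR adjusted p = 5.49e-13). TGFb1 lowered it 1.68-fold in solvent (-0.74 ± 0.086, edgeR adjusted p = 1.11e-10) and 11.2-fold in CHIR (-3.48 ± 0.094, edgeR adjusted p = 2.19e-35). IL1b and TNF raised it 1.66-fold and 2-fold on TGFb1 (0.73 ± 0.087 and 1.0 ± 0.086).

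Adm (ENSMUSG00000030790, GRCm38 chromosome 7, 110627661 to 110629820, plus strand), the vasodilator peptide adrenomedullin, fell with each agent tested against DMSO. DMSO libraries stood at 109, 113 and 112 CPM (111 ± 2.36). CHIR libraries stood at 13.2, 14.1 and 15.1 CPM (14.1 ± 0.966), TGFb1 libraries at 11.9, 10.4 and 9.14 CPM (10.5 ± 1.37) and TGFb1 + DMSO libraries at 8.46, 9.29 and 8.49 CPM (8.75 ± 0.471). The highest library outside DMSO stood at 15.1 CPM. TGFb1 + CHIR, at 9.16, 10 and 10 CPM (9.74 ± 0.498), overlapped TGFb1 and TGFb1 + DMSO. TGFb1 + IL1b held 3.46, 6.12 and 5.42 CPM (5 ± 1.38), and TGFb1 + TNF held 0.682, 0.257 and 0.547 CPM (0.495 ± 0.217), from 18, 7 and 14 counts. Adm fell 12.2-fold with TGFb1 in solvent (-3.61 ± 0.11, edgeR adjusted p = 3.62e-31) and 7.52-fold with CHIR (-2.91 ± 0.1, edgeR adjusted p = 2.17e-27). CHIR added to TGFb1 gave 0.20 ± 0.12 (95% interval -0.04 to 0.45, edgeR adjusted p = 0.183). TNF lowered it a further 22.1-fold on TGFb1 (-4.47 ± 0.2, edgeR adjusted p = 6.02e-24) and IL1b 2.1-fold (-1.07 ± 0.13, edgeR adjusted p = 2.52e-09). An annotated antisense gene, Gm28863, spans the whole of Adm. Its own level averaged 0.0628 CPM and reached 0.211, and the strand setting of the counting is not given, so reads of the pair cannot be told apart.

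Kdr (ENSMUSG00000062960, GRCm38 chromosome 5, 75932827 to 75978458, minus strand), the signalling receptor VEGFR2, stood highest with TGFb1 and CHIR together. Those libraries held 20.1, 18.4 and 20.4 CPM (19.7 ± 1.08), while the highest library of any other group held 6.78. DMSO held 1.67, 1.09 and 2.25 CPM (1.67 ± 0.58) and CHIR 2.23, 1.29 and 1.7 CPM (1.74 ± 0.472), which overlapped. TGFb1 held 2.68, 3.37 and 3.33 CPM (3.13 ± 0.391), TGFb1 + DMSO 4.97, 3.52 and 4.12 CPM (4.2 ± 0.728), TGFb1 + IL1b 2.67, 1.87 and 1.88 CPM (2.14 ± 0.457) and TGFb1 + TNF 6.78, 6.64 and 6.01 CPM (6.48 ± 0.407). CHIR added to TGFb1 raised Kdr 4.88-fold (2.29 ± 0.17, edgeR adjusted p = 1.58e-16), while CHIR alone gave 0.15 ± 0.24 (95% interval -0.33 to 0.63, edgeR adjusted p = 0.649). TGFb1 raised it 2.65-fold in solvent (1.41 ± 0.21, edgeR adjusted p = 6.59e-08) and 11.6-fold in CHIR (3.54 ± 0.19, edgeR adjusted p = 2.02e-22). TNF raised it 1.99-fold on TGFb1 (0.99 ± 0.19), and 0.60 on the log2 scale against TGFb1 + DMSO. The fall with IL1b (-0.54 ± 0.21, edgeR adjusted p = 0.0365) was -0.94 against TGFb1 + DMSO and did not pass without library 2 or 3 of either group, where it ran from -0.46 to -0.50.

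The other endothelial markers were set beside Kdr. In TGFb1 + CHIR their sum was 20.6 to 22.1 CPM over the 3 libraries, against 15.6 to 21.2 CPM in TGFb1 + DMSO, and 14.6 CPM of it was Ptprb. Of the 8 markers tested there, 2 were higher, 2 were lower and 4 did not pass, where 20.8% of all genes were higher and 22.5% lower. Vwf, the clotting factor of endothelium, rose from 0.593 ± 0.269 to 2.37 ± 0.355 CPM (2.05 ± 0.39), and Ptprb, a phosphatase that acts on Tie2, by 0.33 ± 0.13. Egfl7, a secreted endothelial protein, fell by 0.76, and the adhesion gene Pecam1 fell by 2.58. Cldn5, Robo4 and Sox17 were at 0 in all 3 TGFb1 + CHIR libraries, and Pecam1 averaged 0.105 CPM there against 0.659 in TGFb1 + DMSO. The part of such markers in the rise of Kdr was not tested.

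Flt1 (ENSMUSG00000029648, GRCm38 chromosome 5, 147561604 to 147726011, minus strand), the receptor and trap VEGFR1, moved opposite to Kdr when CHIR met TGFb1. CHIR libraries stood at 59, 57.9 and 58.6 CPM (58.5 ± 0.531) and TGFb1 + CHIR libraries at 9.77, 9.38 and 10.2 CPM (9.8 ± 0.43), above and below all others. DMSO at 21.8, 25.8 and 21.2 CPM (22.9 ± 2.5), TGFb1 at 24, 23 and 25.8 CPM (24.3 ± 1.45) and TGFb1 + DMSO at 23.8, 25.1 and 23.8 CPM (24.2 ± 0.751) overlapped each other. TGFb1 + IL1b held 19.1, 22 and 20.9 CPM (20.6 ± 1.46), which overlapped DMSO, and TGFb1 + TNF 33.1, 31.6 and 33.8 CPM (32.9 ± 1.13). CHIR raised Flt1 2.67-fold alone (1.42 ± 0.076, edgeR adjusted p = 6.27e-22) and lowered it 2.38-fold on TGFb1 (-1.25 ± 0.088, edgeR adjusted p = 2.06e-17). TGFb1 in solvent gave 0.14 ± 0.079 (95% interval -0.02 to 0.30, edgeR adjusted p = 0.122), and 0.23 (edgeR adjusted p = 0.0169) without DMSO library 2. TNF raised it 1.3-fold (0.38 ± 0.078, edgeR adjusted p = 3.6e-05). The fall with IL1b (-0.23 ± 0.08, edgeR adjusted p = 0.0207) did not pass without TGFb1 library 3 or without TGFb1 + IL1b library 1 (-0.18 in both cases). Gene counts do not tell the membrane-bound from the soluble Flt1 transcript.

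Nrp1 (ENSMUSG00000025810, GRCm38 chromosome 8, 128358604 to 128503363, plus strand), the co-receptor of VEGF-A and of class 3 semaphorins, was highest in DMSO. It stood at 262, 275 and 248 CPM in DMSO (262 ± 13.4) and 200, 197 and 201 CPM in CHIR (199 ± 1.86). TGFb1 at 134, 127 and 127 CPM (129 ± 3.94), TGFb1 + DMSO at 126, 117 and 119 CPM (121 ± 4.99) and TGFb1 + CHIR at 126, 126 and 130 CPM (127 ± 2.16) formed a middle set, in which neighbours in the order of means overlapped. The lowest were TGFb1 + IL1b at 82.9, 79.6 and 81.1 CPM (81.2 ± 1.65) and TGFb1 + TNF at 71.1, 64.2 and 68 CPM (67.8 ± 3.45). Nrp1 fell 2.08-fold with TGFb1 in solvent (-1.06 ± 0.047, edgeR adjusted p = 3.4e-26), 1.25-fold with CHIR (-0.33 ± 0.046), 1.59-fold with IL1b on TGFb1 (-0.67 ± 0.048) and 1.99-fold with TNF on TGFb1 (-0.99 ± 0.049). The rise with CHIR on TGFb1 (0.13 ± 0.047, edgeR adjusted p = 0.0182) was 0.00 (edgeR adjusted p = 0.951) with TGFb1 without solvent as the control. It also did not pass without TGFb1 + CHIR library 3 (0.12) or without TGFb1 + DMSO library 2 (0.11) or 3 (0.12).

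Between genes, levels were compared per kilobase of exon only. In DMSO the order was Vegfd (523 ± 4.71 CPM per kilobase), Adm (68.7 ± 1.45), Vegfa (48.1 ± 1.13), Vegfb (41.5 ± 1.04) and Nrp1 (26.8 ± 1.37), followed by Angptl4 (8.06 ± 1.18), Vegfc (7.18 ± 0.973), Flt1 (1.7 ± 0.185), Angpt1 (0.337 ± 0.101) and Kdr (0.185 ± 0.0643). Angptl4 and Vegfc differed there by less than the larger of their SDs. In TGFb1 + TNF, Vegfa stood at 546 ± 10.9 CPM per kilobase, Vegfc at 40.6 ± 1.45 and Vegfb at 14.1 ± 1.23, while Vegfd was at 2.28 ± 0.323 and Adm at 0.306 ± 0.134. The receptors stayed below the ligand Vegfa in every group: Kdr reached 2.18 ± 0.119 CPM per kilobase in TGFb1 + CHIR and Flt1 4.33 ± 0.0393 in CHIR.

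The effect of TGFb1 within solvent was read from TGFb1 + DMSO against DMSO. Of the 10 members, Vegfa, Angpt1 and Kdr rose, Vegfb, Vegfd, Angptl4, Nrp1 and Adm fell, and Vegfc and Flt1 did not pass. That is 3 higher and 5 lower, 8 called, where 62% of all genes tested were called (30.7% higher and 31.3% lower). The members' median log2 fold change was -0.30, against -0.021 over all genes tested. With TGFb1 without solvent in place of TGFb1 + DMSO, 9 were called, Vegfc being added.

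The effect of CHIR in the absence of TGFb1 was read from CHIR against DMSO. Angptl4 and Flt1 rose, Vegfa, Vegfb, Vegfc, Vegfd, Nrp1 and Adm fell, and Angpt1 and Kdr did not pass. The 8 calls, 2 higher and 6 lower, compare with 44.8% of all genes (22.1% higher and 22.7% lower), and the median was -0.26 against -0.014. This comparison shares the DMSO libraries with TGFb1 + DMSO against DMSO. Adm was at -2.91 here and -3.61 there, and Angptl4 at 1.65 here and -0.74 there.

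What CHIR adds to TGFb1 was read from TGFb1 + CHIR against TGFb1 + DMSO. Kdr, Vegfb and Nrp1 rose, Vegfa, Vegfc, Vegfd, Angpt1, Angptl4 and Flt1 fell, and Adm did not pass. The 9 calls, 3 higher and 6 lower, compare with 43.3% of all genes (20.8% higher and 22.5% lower), and the median was -0.45 against 0 over all genes tested. TGFb1 + CHIR against CHIR gave the effect of TGFb1 in CHIR-treated cells, with 9 called against 66.2% of all genes (33.8% higher and 32.3% lower): Vegfa and Kdr rose, Angpt1 did not pass and the other 7 fell, with a median of -0.52 against 0.013.

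**Figure D3:**
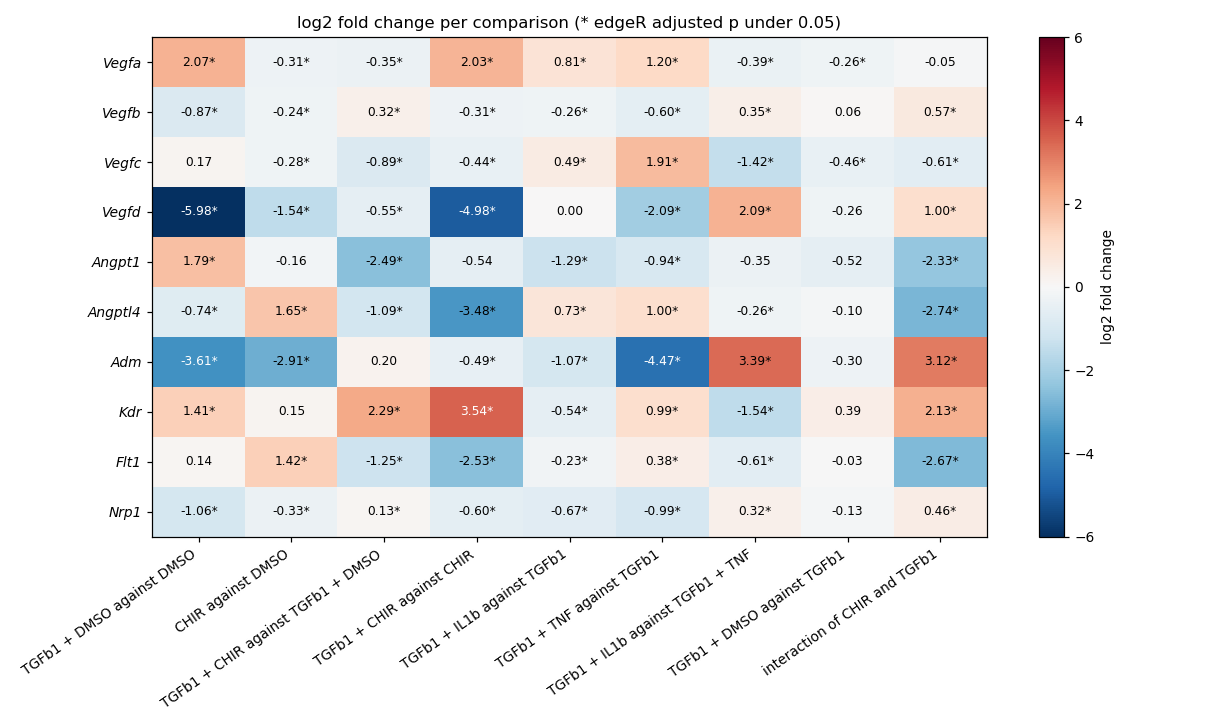
Rows are the 10 members and columns the 9 comparisons, coloured and labelled by log2 fold change, with an asterisk where the edgeR adjusted p was under 0.05. Vegfd (-5.98) and Adm (-3.61) fell most in TGFb1 + DMSO against DMSO, and Adm fell by 4.47 with TNF on TGFb1.

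The interaction tested whether the CHIR effect differed with and without TGFb1. For Angptl4 the effect turned from a rise to a fall (difference -2.74 ± 0.13, edgeR adjusted p = 5.19e-24), as it did for Flt1 (-2.67 ± 0.12, edgeR adjusted p = 1.81e-25). Kdr rose with CHIR when TGFb1 was there, by 2.13 ± 0.29 more than without it (edgeR adjusted p = 2.78e-08). Adm fell with CHIR alone and not detectably on TGFb1 (3.12 ± 0.16, edgeR adjusted p = 2.98e-21). Vegfd fell less with TGFb1 there (1.0 ± 0.11) and Angpt1 fell more (-2.33 ± 0.38), as did Vegfc (-0.61 ± 0.13), while Vegfb (0.57 ± 0.097) and Nrp1 (0.46 ± 0.066) had a fall without TGFb1 and a value above 0 with it. For Nrp1 that value (0.13) was 0.00 against TGFb1 without solvent. Vegfa was at -0.05 ± 0.056 (95% interval -0.16 to 0.07, edgeR adjusted p = 0.546). The 9 members called, 5 above 0 and 4 below, compare with 41.2% of all genes (21% above and 20.3% below), and their median was 0.21 against 0.032.

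**Figure D4:**
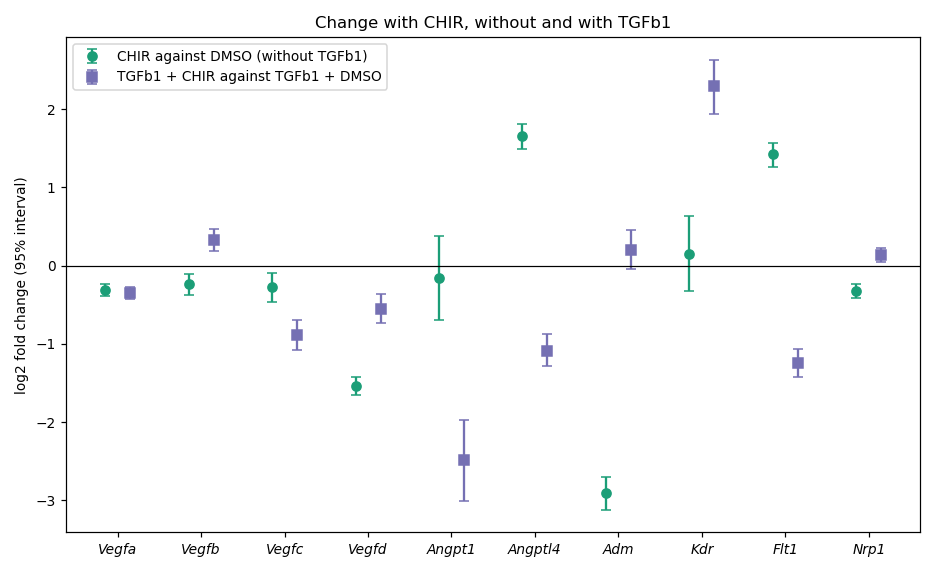
The log2 fold change with CHIR is plotted for each member without TGFb1 (circles) and with TGFb1 (squares), with 95% intervals. Angptl4 (1.65 and -1.09) and Flt1 (1.42 and -1.25) lie on opposite sides of 0, and Kdr (0.15 and 2.29) is above 0 with TGFb1.

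TGFb1 + IL1b and TGFb1 + TNF were each set against TGFb1, so these comparisons share their control. With IL1b, Vegfa, Vegfc and Angptl4 rose, Vegfb, Angpt1, Kdr, Flt1, Nrp1 and Adm fell, and Vegfd did not pass, with 9 called against 34.6% of all genes (17.2% higher and 17.4% lower) and a median of -0.24 against 0.002. With TNF, Vegfa, Vegfc, Angptl4, Kdr and Flt1 rose and Vegfb, Vegfd, Angpt1, Nrp1 and Adm fell, with 10 called against 56.6% of all genes (27.7% higher and 28.8% lower) and a median of -0.11 against -0.004. Set directly against each other, TGFb1 + IL1b held more Adm (3.39 ± 0.22), Vegfd (2.09 ± 0.098), Vegfb (0.35 ± 0.074) and Nrp1 (0.32 ± 0.049) than TGFb1 + TNF. It held less Kdr (-1.54 ± 0.19), Vegfc (-1.42 ± 0.077), Flt1 (-0.61 ± 0.078), Vegfa (-0.39 ± 0.038) and Angptl4 (-0.26 ± 0.081). Angpt1 did not pass (-0.35 ± 0.22), so 9 were called against 47.6% of all genes (24.7% higher and 22.8% lower), with a median of -0.30 against 0.013. In TGFb1 + TNF the endothelial junction gene Cdh5 stood at 4.43, 4.91 and 4.61 CPM against 0.151, 0.176 and 0.455 CPM in TGFb1, while Pecam1 averaged 0.164 and 0.538 CPM in the same groups and the summed endothelial markers 19.6 ± 0.345 and 18.6 ± 2.83 CPM. The part of these markers in the rises of Kdr and Flt1 was not tested.

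The effect of the solvent on TGFb1-treated cells was read from TGFb1 + DMSO against TGFb1. Vegfa (-0.26 ± 0.038, edgeR adjusted p = 5.12e-06) and Vegfc (-0.46 ± 0.085, edgeR adjusted p = 0.000186) were lower with solvent, and the other 8 did not pass. The 2 called compare with 6.13% of all genes (2.33% higher and 3.8% lower), and the median was -0.20 against 0. Vegfd stood close to the threshold (-0.26 ± 0.081, edgeR adjusted p = 0.0514) and passed without TGFb1 library 2 (edgeR adjusted p = 0.0234) or 3 (edgeR adjusted p = 0.0191).

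The counts of the gene lists that follow are to be read against all genes tested. Of these, 30.7% were higher and 31.3% lower with TGFb1 in solvent, 22.1% and 22.7% with CHIR alone, 20.8% and 22.5% with CHIR on TGFb1, 17.2% and 17.4% with IL1b, and 27.7% and 28.8% with TNF.

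Of 10 other VEGF, angiopoietin and adrenomedullin ligands, 8 were tested. With TGFb1 in solvent, 5 rose and 3 fell, with a median of 0.83. Pgf, placental growth factor and a VEGFR1 ligand, rose from 0.141 ± 0.122 CPM in DMSO, where library 3 had no count, to 8.21 ± 0.714 CPM (5.80 ± 0.29, edgeR adjusted p = 2.43e-23). Angpt2, which opposes Angpt1 at Tie2, fell from 26.6 ± 1.74 to 0.437 ± 0.31 CPM (-5.81 ± 0.22, edgeR adjusted p = 1.46e-28), opposite to the rise of Angpt1. Adm2, a relative of adrenomedullin, rose from 3.86 ± 0.642 to 24.6 ± 3.84 CPM (2.73 ± 0.1), opposite to Adm, and Angpt4 rose from 7.14 ± 1.43 to 30.6 ± 0.95 CPM (2.17 ± 0.1). With CHIR alone 2 rose and 3 fell, among them Pgf (1.44 ± 0.53) and Angptl2, a secreted inflammatory relative of Angptl4 (1.16 ± 0.044), upward. With CHIR on TGFb1 4 rose and 1 fell, led by Angptl2 (0.95 ± 0.044) and Angpt4 (0.76 ± 0.089). IL1b raised 3 and lowered 1, with Adm2 at 1.29 ± 0.077 and Angpt4 at -1.15 ± 0.093. TNF raised 4 and lowered 3, with Angpt4 at -2.83 ± 0.11 and Angptl6 at 1.61 ± 0.15, Adm2 at 1.53 ± 0.077, and Apln, the vessel peptide apelin, at -1.52 ± 0.11.

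Of 10 other receptors and co-receptors, 7 were tested, and Flt4, the receptor of VEGF-C and VEGF-D, was not among them: its group means ran from 0.0628 to 0.125 CPM. With TGFb1 in solvent 2 rose and 3 fell. Tek, the receptor of Angpt1, fell from 7.02 ± 0.917 to 0.776 ± 0.237 CPM (-3.12 ± 0.26). Calcrl, the adrenomedullin receptor, fell from 69 ± 5.72 to 18.7 ± 1.46 CPM (-1.83 ± 0.082), in the same direction as its ligand Adm. Ackr3, a scavenger receptor that takes up adrenomedullin in mice, rose (1.12 ± 0.1), as did the VEGF-C co-receptor Nrp2 (0.58 ± 0.063), opposite to Nrp1. CHIR raised 3 and lowered 1 of the 7. Calcrl rose with CHIR alone (1.27 ± 0.073) and fell with CHIR on TGFb1 (-1.76 ± 0.11, interaction -3.03 ± 0.13, edgeR adjusted p = 4.79e-22), which is the pattern of Angptl4 and Flt1. Ramp3, the other partner of Calcrl, rose with CHIR in both settings (1.69 ± 0.18 and 2.70 ± 0.18). Ackr3 fell in both (-3.25 ± 0.16 and -2.71 ± 0.12) and Nrp2 rose in both (0.52 ± 0.063 and 0.78 ± 0.062). On TGFb1 CHIR raised 2 and lowered 2. IL1b raised 2 and lowered 1 and TNF raised 2 and lowered 3, and with both cytokines Calcrl rose most (1.30 ± 0.089 and 2.25 ± 0.086) while Adm fell.

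All 12 semaphorins and plexins that pair with neuropilins were tested. With TGFb1 in solvent 8 fell, as Nrp1 did, and 1 rose, which is 75% called where 62% of all genes were, with a median of -0.94. Sema3d fell by 4.31 ± 0.26, Sema3f by 3.12 ± 0.11 and Sema3c by 3.09 ± 0.11, class 3 semaphorins that bind neuropilins, while Plxna4, a semaphorin receptor, rose from 43.8 ± 2.47 to 362 ± 12.6 CPM (3.11 ± 0.057). CHIR alone lowered 8 and raised 3, with Sema3f at -1.57 ± 0.1. CHIR on TGFb1 lowered 4 and raised 3, with Sema3f at -1.52 ± 0.16, Plxna4 at -1.51 ± 0.053 and Plxna2 at 1.41 ± 0.078. IL1b lowered 5 and raised 3, led by Sema3d (-1.21 ± 0.4). TNF lowered 7 and raised 4, with Sema3d at -4.94 ± 0.7, Plxna4 at -2.72 ± 0.056 and Sema3c at -2.62 ± 0.19.

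Of 9 genes for the proteolytic activation of VEGF-C and VEGF-D, 8 were tested. Ccbe1, which brings VEGF-C to its protease, rose from 2.83 ± 0.65 to 16.4 ± 1.81 CPM with TGFb1 in solvent (2.60 ± 0.14, edgeR adjusted p = 6.36e-18) and reached 94.6 ± 5.92 CPM in TGFb1 + TNF. The group with the most Ccbe1 was thus the group with the most Vegfc. Furin, a convertase that cuts the VEGF-C precursor, rose as well (1.33 ± 0.045), and 4 of the 8 rose and 4 fell in that comparison. CHIR on TGFb1 raised 3 and lowered 3, with Ccbe1 at -1.87 ± 0.14 and the plasminogen activator Plat at 1.06 ± 0.045, while CHIR alone raised 3 and lowered 2, with the plasminogen activator Plau at -1.32 ± 0.066. TNF raised 2 and lowered 5, with Ccbe1 at 2.15 ± 0.1 and the convertase gene Pcsk5 at -2.45 ± 0.35. IL1b raised 3 and lowered 3, with Ccbe1 at 0.95 ± 0.1 and Plau at -1.04 ± 0.065.

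Vegfa, Adm and Angptl4 are textbook targets of the hypoxia-inducible factors, so 24 other hypoxia response genes were set beside them. These hold genes of the pathway itself (Hif1a, Epas1, Arnt and Vhl) beside its targets. With TGFb1 in solvent 17 rose and 3 fell, where 30.7% of all genes rose and 31.3% fell, with a median of 1.46. Vegfa (2.07) lay on the side of the 17, and Adm (-3.61) and Angptl4 (-0.74) on the side of the 3. The 3 were Epas1 and Arnt, which encode subunits of the factors, and Kdm3a. Arnt went from 140 ± 2.84 CPM in DMSO to 94.1 ± 1.38 in TGFb1 + DMSO, and Kdm3a from 98.6 ± 3.49 to 81.9 ± 3.78. The largest changes were in Epas1 (-3.63 ± 0.087), which encodes the factor HIF-2a, in the mitophagy gene Bnip3 (3.12 ± 0.32), in Ankrd37 (2.88 ± 0.36) and in the HIF hydroxylase Egln3 (2.41 ± 0.1). With TNF 5 rose and 15 fell, with a median of -0.51 (27.7% and 28.8% of all genes). Adm fell too (-4.47), while Vegfa (1.20) and Angptl4 rose. Ankrd37 (-2.44 ± 0.33), the glycolysis regulator Pfkfb3 (-2.31 ± 0.083), Bnip3 (-1.40 ± 0.27) and the HIF hydroxylase Egln1 (-1.36 ± 0.052) changed most there. With IL1b 11 rose and 4 fell (median 0.14), led by the oxidoreductase Ero1l (1.27 ± 0.12). With CHIR alone 9 rose and 7 fell (median -0.03), with Ero1l at 0.85 ± 0.13, Epas1 at -0.83 ± 0.074 and Pgk1 at -0.87 ± 0.23, the last of which is uncertain because near-identical copies may take some of its reads. With CHIR on TGFb1 5 rose and 3 fell (median -0.03), with Ankrd37 (-1.27 ± 0.31) and Pfkfb3 (-0.90 ± 0.075) downward and Hif1a, encoding HIF-1a, upward (0.74 ± 0.041).

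**Figure D5:**
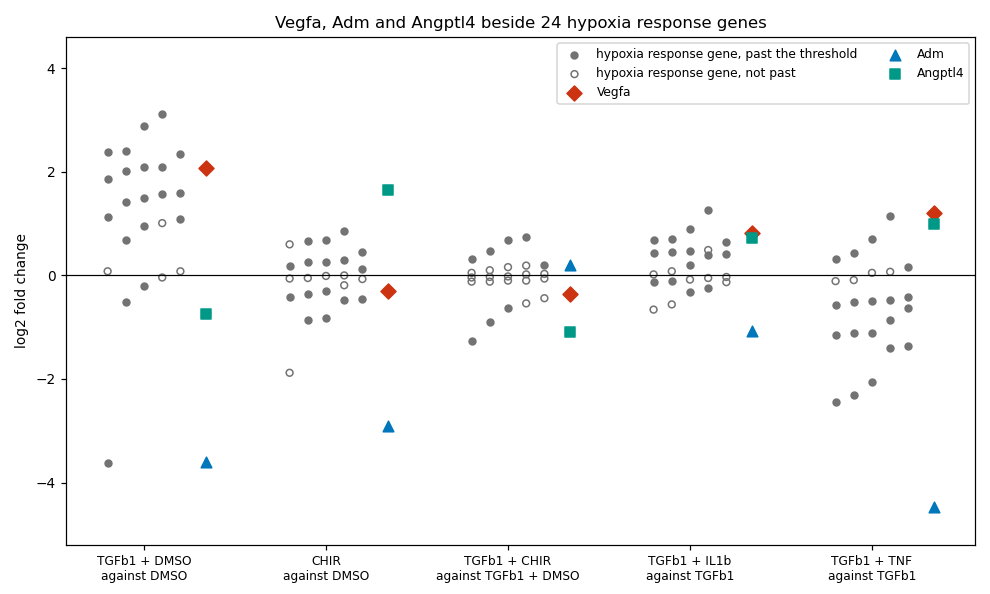
The log2 fold change is plotted for 24 hypoxia response genes (grey circles, filled where the edgeR adjusted p was under 0.05) and for Vegfa, Adm and Angptl4 in 5 comparisons. With TGFb1 in solvent Vegfa (2.07) lies among the 17 genes that rose and Adm (-3.61) beside Epas1 (-3.63), and with TNF Vegfa lies above 0 while 15 of the 24 fell.

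Angptl4 is also a PPAR target, and 13 of 14 other PPAR target genes were tested. CHIR alone raised 7 and lowered 2 (median 0.29), led by the lipid droplet protein Plin2 (0.94 ± 0.048) upward and Ucp2 (-0.89 ± 0.19) downward. TGFb1 in solvent raised 2 and lowered 9 (median -0.47), where 31.3% of all genes fell, with Fabp4, a fatty acid carrier, at -2.74 ± 0.33, Lpl, the lipase that Angptl4 inhibits, at -2.41 ± 0.05 and the kinase Pdk4 at -2.30 ± 0.098. With CHIR on TGFb1 4 rose and 5 fell (median -0.16). With TNF 2 rose and 9 fell (median -0.49), led by Fabp4 (-2.58 ± 0.45) and the carnitine palmitoyltransferase gene Cpt1a (-2.54 ± 0.062), while Angptl4 rose. IL1b raised 3 and lowered 5 (median -0.09).

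Of 13 genes listed as matrix-bound and secreted inhibitors of angiogenesis, 12 were tested. The list holds Vash2, vasohibin-2, which is known rather for promoting angiogenesis, so the counts and medians are not of inhibitors alone. Vash2 stood at 40.6 ± 2.86 CPM in DMSO, 61.2 ± 3.02 in TGFb1 + DMSO and 86.7 ± 3.03 in TGFb1 + TNF. With TGFb1 in solvent 8 rose and 2 fell (median 0.42): Vash1, vasohibin, rose by 3.95 ± 0.15, the chemokine Cxcl10 by 3.53 ± 0.26 and Timp3, which blocks VEGFR2 as well as metalloproteinases, by 2.36 ± 0.091, while the protease Adamts1 fell by 3.15 ± 0.051. CHIR raised 5 and lowered 4 (median 0.00), with thrombospondin-1 (Thbs1) at -1.18 ± 0.041. CHIR on TGFb1 raised 3 and lowered 8 (median -0.33), with Cxcl10 at -2.77 ± 0.24 and Col18a1, the source of endostatin, at -1.54 ± 0.058. IL1b raised 3 and lowered 4 (median 0.07), and TNF raised 4 and lowered 7 (median -0.45). Thbs1 fell from 2766 ± 111 CPM in TGFb1 to 1133 ± 70.3 CPM with IL1b and 717 ± 22.6 CPM with TNF. In the same groups Cxcl10 rose from 30.8 ± 6.63 CPM in TGFb1 to 102 ± 16.2 with IL1b (1.71 ± 0.19) and 171 ± 41.1 with TNF (2.40 ± 0.19), and Col18a1 rose by 0.64 ± 0.051 and 0.81 ± 0.051. Inhibitors thus went both ways in the groups where Vegfa was highest.

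Likeness of pattern was measured by Pearson's r of log2 CPM over the 21 libraries, among 9958 genes of at least moderate level, and is a description of libraries that share treatments. The closest genes to Vegfa were Asns (r = 0.994), Gars (0.992) and Phf10 (0.992), to Vegfd Lrrn4cl (0.992), Itga1 (0.992) and Oplah (0.990), and to Adm Zmym3 (0.986), Ston1 (0.981) and Ehd2 (0.974). Vegfb was closest to Fam102a (0.986), Man2b2 (0.984) and Sfrp1 (0.982), and Nrp1 to Ogn (0.986), Zfp512b (0.986) and Sfrp1 (0.984), so Sfrp1, a secreted Wnt antagonist, was among the closest of both. Vegfc was closest to Pacsin2 (0.980), Abcb1b (0.978) and Dcbld2 (0.973), and Angptl4 to Gnptab (0.970), Gpr176 (0.962) and Fam3c (0.958). Kdr, Flt1 and Angpt1 had less close neighbours: Kdr had Rnf41 (0.947), Atp6ap2 (0.937) and Wnt2 (0.931), Flt1 had Crnkl1 (0.949), Pds5b (0.946) and Col15a1 (0.943), and Angpt1 had Bhlhe41 (0.923), Mybl1 (0.896) and Cmklr1 (0.891). Among the members themselves, r over the 21 libraries was 0.96 for Vegfb and Nrp1, 0.92 for Angptl4 and Flt1, 0.92 for Nrp1 and Adm and 0.82 for Vegfd and Adm. It was -0.95 for Vegfa and Vegfb and -0.90 for Vegfa and Vegfd.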

How the data were processed

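Stranded total RNA libraries of 21 fibroblast samples were analysed. The authors deposited raw counts, 1 value per gene and library. Each of the 21 single-library tables equalled its column of that table, and 0 columns went unused. The submitters' processing notes name the builds GRCh38 and GRCm38. The aligner, the counter and the strand setting were not given in the sources used here. Symbols, positions and exon lengths came from GENCODE M21 (GRCm38), which held 52489 of the 52636 gene IDs, and 147 IDs with 0.00736% of the counts had no name.

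Groups were taken from the labels. Testing used edgeR 4.0.16 in R 4.3.3 on genes passing filterByExpr, with TMM factors, 1 coefficient per group over all 21 libraries, robust quasi-likelihood F-tests and Benjamini-Hochberg adjustment over 16197 genes with a threshold of 0.05. For the interaction, the CHIR effect without TGFb1 was subtracted from that with TGFb1. The biological coefficient of variation shared by all genes came to 0.0581. The fit was also run on counts simulated from its own estimates of spread, with few genes changed. That run does not show how the fit does on data where many genes change. CPM were computed from the counts and library totals, and log2 CPM for likeness used a prior count of 2.

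The members and gene lists were chosen with earlier results of these data known. All 10 members were described in every comparison. Of each other list, up to 4 genes per comparison were named, in order of the size of change, provided they passed the threshold and averaged 0 log2 CPM or more. The promoter rule admitted 8 members, of which 3 were printed. Genes and levels named as background to a member or a list were chosen after their values were seen. These were marker genes, Flt4, Ramp2, Arnt, Kdm3a and Vash2. Alternatives were DESeq2 1.42.0, limma 3.58.1 voom, RLE factors, no filter, a minimum of 1 CPM in 3 or more libraries, removal of mitochondrial and rRNA genes, a fit of the compared groups alone, the other TGFb1 control, each replicate left out, and TMM-scaled CPM for levels. Low counts limit the precision, as for Angpt1 and Kdr, for Adm in TGFb1 + TNF, and for Sema3d and Fabp4 in groups with TGFb1.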

Additional observations from a re-analysis of the deposited data

Results flagged for a closer look

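For 9 of the 10 members, the effect of CHIR differed between cells with and without TGFb1 in a direct test of that difference (edgeR, adjusted p under 0.05), and the values here are log2 fold changes with TGFb1 less those without. The difference was -2.74 for Angptl4 and -2.67 for Flt1, both of which rose with CHIR alone and fell with CHIR on TGFb1. It was 3.12 for Adm, which fell with CHIR alone, 2.13 for Kdr and 1.0 for Vegfd. Angpt1 (-2.33) and Vegfc (-0.61) were lower with CHIR on TGFb1 than the CHIR effect alone would give, and Vegfb (0.57) and Nrp1 (0.46) were higher. For Nrp1, the rise with CHIR on TGFb1 itself depended on the control. The whole-table share of genes called in this test was 41.2%.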

How the results depend on the processing

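Over 1270 values of single members under the alternatives, 1239 kept their side of the threshold, 17 no longer passed and 14 passed where they had not. No called value changed direction, while a few values that passed in neither setting changed sign, such as Adm with CHIR on TGFb1 (0.20, and -0.09 against TGFb1 without solvent). The count of members called ran from 8 to 9 for TGFb1 + DMSO against DMSO, 7 to 8 for CHIR, 8 to 9 for CHIR on TGFb1, 9 to 10 for TGFb1 + CHIR against CHIR, 7 to 10 for IL1b and 9 to 10 for TNF, and was 9 throughout for IL1b against TNF and for the interaction. For the solvent comparison it was 2, 2 to 3 with 1 library left out, and 3 under each of the 7 other settings: the added gene was Vegfd in 4, Angpt1 with limma voom and with only the groups compared, and Nrp1 with DESeq2. Kdr with IL1b also did not pass with limma voom (adjusted p = 0.0682) or with only the groups compared (0.0601), and Nrp1 with CHIR on TGFb1 did not pass with no filter (0.0845) or without mitochondrial and rRNA genes (0.0616). The cause of these changes was not tested. Scaling levels by TMM moved 7 of 70 group means by more than their SD, such as Vegfd in DMSO to 1204 CPM.

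No paired analysis was possible because the labels carry no replicate numbers: the numbers 1 to 3 only name libraries. The groups have 3 libraries each, doses and times are unknown, and transcripts stand in place of protein. Small differences thus rest on little, such as Nrp1 with CHIR on TGFb1 (0.13), Flt1 with IL1b (-0.23) and Vegfb with CHIR alone (-0.24). Adm in TGFb1 + TNF rests on 7 to 18 counts a library.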
